A study of Mus musculus with 30 samples.

Results

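The type I interferon-stimulated genes followed here are 35 antiviral and regulatory genes of the mouse, among them Isg15, Usp18, the Ifit, Oas and Mx families, the sensors of viral RNA Ddx58, Ifih1 and Dhx58, and the transcription factors Irf7, Irf9 and Stat2. They were listed by symbol, and a gene was kept if at least 5 libraries held a nonzero count for it. All 35 met that rule among 24557 gene entries, and all 35 were among the 15482 genes that passed a filter on low counts and were tested. Their RNA was measured in whole tumours grown from the mouse colon carcinoma line MC38, whose cells had been placed under the skin of the right flank of female C57BL/6J mice aged 10 weeks. Treatment was given into a vein, once, at a tumour volume of 200 to 300 mm3. It was 0.39 mg/kg of mXTX301, the mouse surrogate of a masked interleukin-12, or 0.03 mg/kg of a positive control without the mask, called the unmasked control here, or vehicle alone. Tumours were taken at day 4 or day 7, which gave 6 groups of 5 mice each. The molecules were given at different doses, so a difference between them is one of molecule and dose together. Counts per library ran from 48301869 to 85195518, and the 35 genes held 0.374% to 0.695% of them. Each of the 35 genes had between 693 and 49674 counts in every library. Levels are counts-per-million values (CPM) scaled by the trimmed mean of M-values (TMM).

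Type I interferons, the interferon-alpha proteins and interferon-beta, are released when cells sense foreign or misplaced nucleic acid. They bind a receptor made of Ifnar1 and Ifnar2, whose kinases activate Stat2; with Irf9 it belongs to a complex that binds the interferon-stimulated response element (ISRE) in the promoters of genes such as those studied here. Interferon-gamma, which T cells and natural killer cells make in response to interleukin-12, acts through a separate receptor and mainly through another element, the gamma-activated sequence (GAS). The sets of targets of the interferons overlap only in part, and the comparison of each treatment with vehicle asks where the type I set stood in tumours given an interleukin-12 molecule.

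The 35 genes did not move as a block in the treated tumours. Isg15, Usp18, Oas1a, Oas1g and Oasl1 fell in each of the 4 comparisons with vehicle, by between 1.36-fold (Isg15, unmasked control, day 7) and 1.89-fold (Oas1g, unmasked control, day 4). Stat2 and Herc6 rose in 3 of the 4, by 1.41-fold to 1.54-fold. In all, 17 genes fell in at least 1 comparison and rose in none, 7 rose in at least 1 and fell in none, none did both, and 11 passed the test in no comparison. A gene is said to rise or fall where edgeR's quasi-likelihood test gave an adjusted p under 0.05 over all 15482 genes. The comparisons of the same day share their vehicle tumours, so a gene's calls for both molecules are not independent of each other.

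With mXTX301 at day 4, 4 of the 35 genes rose and 6 fell, where 16.2% of all genes tested rose and 16% fell; the share of the 35 was near that background (11.4% and 17.1%). Their median log2 fold change was -0.09, against 0.01 over all genes. With mXTX301 at day 7, 5 rose and 15 fell (14.3% and 42.9%), against a background of 25.7% and 22.7%, and the median was -0.10 against 0.02. With the unmasked control at day 4, none rose and 12 fell (34.3%), against 11.6% and 10.8% of all genes, and the median was -0.31 against -0.01. With the unmasked control at day 7, 2 rose and 11 fell (5.71% and 31.4%), against 23.2% and 21.8%, and the median was -0.25 against 0.01. The fraction that fell thus stood above the background in 3 of the 4 comparisons and close to it in mXTX301 at day 4, as counts and with no test of the list. Of these, only the share with the unmasked control at day 4 also stood above its background without the libraries rich in skin RNA, whether the 8 with over 100 CPM of keratin genes or the 12 with over 10 times the median were left out. Without the 8, the share that fell was 25.7% against 8.64% of all genes with the unmasked control at day 4, but 14.3% against 20.5% with mXTX301 at day 7 and 17.1% against 18.3% with the unmasked control at day 7. Without the 12 the shares were 20% against 4.01%, 11.4% against 15.4% and 0% against 5.82% in the same order. Groups that did not overlap at all were fewer: 3 genes higher and 2 lower with mXTX301 at day 4 (9.29% and 9.33% of all genes), 3 and 2 at day 7 (16.5% and 14.2%), 0 and 6 with the unmasked control at day 4 (7.3% and 6.54%) and 2 and 0 at day 7 (12.5% and 12.8%). Single libraries moved these counts. The 6 falls with mXTX301 at day 4 became 3 without any 1 of vehicle replicates 1, 3 or 4 or mXTX301 replicates 3 or 5. At day 7 the 15 falls with mXTX301 became 8 without vehicle replicate 3 and 9 without any 1 of mXTX301 replicates 3, 4 or 5, and the 5 rises became 3 without any 1 of vehicle replicates 1, 2 or 4 or mXTX301 replicates 2 or 5. The 11 falls with the unmasked control at day 7 became 6 without unmasked replicate 2 and 7 without replicate 5, and the 2 rises became 4 without vehicle replicate 5 of day 4 or replicate 3 of day 7.

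**Figure D1:**
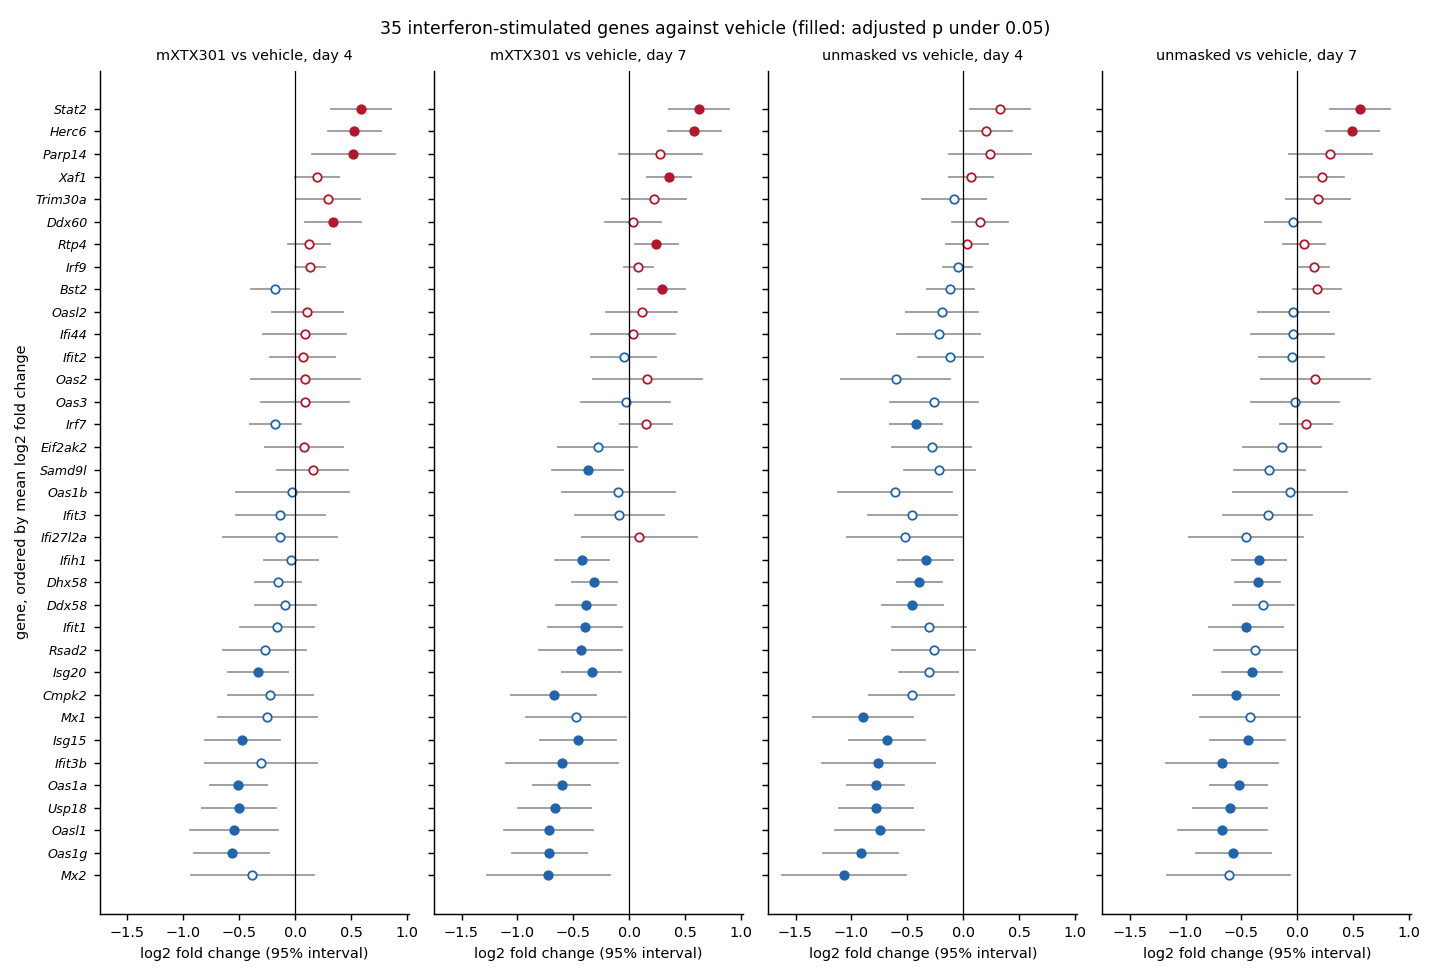
Log2 fold change of the 35 genes against vehicle (x axis; bar, 95% interval) in each of the 4 comparisons, with genes ordered by their mean over the 4 (y axis); filled points have an edgeR adjusted p under 0.05. Filled points to the left, 6, 15, 12 and 11 from the left panel to the right, outnumber those to the right, 4, 5, 0 and 2, and Stat2 and Herc6 stand at the top.

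Printed below are the regions just before the start of genes that fell in all 4 comparisons, and of Stat2 and Herc6, which rose in 3. They show which of these genes carry a match to the interferon elements in this window. Each is the 250 bases upstream of a RefSeq start site on GRCm38.p6, read 5′ to 3′ on the strand of the gene. Capitals mark matches, on either strand, to the ISRE core GAAANNGAAA or to the GAS pattern TTCNNNGAA. They are, in order, Isg15 (chr4:156200819-156201068, minus strand), Oas1a (chr5:120907526-120907775, minus), Oas1g (chr5:120887614-120887863, minus), Oasl1 (chr5:114922990-114923239, plus), Stat2 (chr10:128270248-128270497, plus) and Herc6 (chr6:57580742-57580991, plus); the table used held no entry for Usp18.
Isg15: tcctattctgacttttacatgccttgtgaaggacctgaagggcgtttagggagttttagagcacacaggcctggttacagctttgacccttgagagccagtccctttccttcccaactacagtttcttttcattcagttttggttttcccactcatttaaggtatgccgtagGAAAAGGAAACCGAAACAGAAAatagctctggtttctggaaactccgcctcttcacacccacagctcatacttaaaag
Oas1a: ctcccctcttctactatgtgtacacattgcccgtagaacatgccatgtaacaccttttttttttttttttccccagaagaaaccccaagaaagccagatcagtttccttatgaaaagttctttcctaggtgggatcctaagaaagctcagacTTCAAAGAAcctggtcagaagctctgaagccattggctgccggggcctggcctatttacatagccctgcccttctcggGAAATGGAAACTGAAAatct
Oas1g: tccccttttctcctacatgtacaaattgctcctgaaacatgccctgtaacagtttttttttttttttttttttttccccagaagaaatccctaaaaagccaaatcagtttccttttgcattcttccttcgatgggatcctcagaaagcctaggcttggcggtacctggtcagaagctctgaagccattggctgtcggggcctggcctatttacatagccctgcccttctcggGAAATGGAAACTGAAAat
Oasl1: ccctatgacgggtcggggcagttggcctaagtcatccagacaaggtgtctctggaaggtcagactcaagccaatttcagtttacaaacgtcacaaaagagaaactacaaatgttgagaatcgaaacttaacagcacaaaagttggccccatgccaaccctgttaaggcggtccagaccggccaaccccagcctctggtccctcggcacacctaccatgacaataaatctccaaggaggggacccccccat
Stat2: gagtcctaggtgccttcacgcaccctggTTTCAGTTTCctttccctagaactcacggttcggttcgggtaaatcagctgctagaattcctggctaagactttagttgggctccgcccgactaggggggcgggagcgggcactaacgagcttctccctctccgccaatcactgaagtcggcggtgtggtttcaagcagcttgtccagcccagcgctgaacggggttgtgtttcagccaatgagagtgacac
Herc6: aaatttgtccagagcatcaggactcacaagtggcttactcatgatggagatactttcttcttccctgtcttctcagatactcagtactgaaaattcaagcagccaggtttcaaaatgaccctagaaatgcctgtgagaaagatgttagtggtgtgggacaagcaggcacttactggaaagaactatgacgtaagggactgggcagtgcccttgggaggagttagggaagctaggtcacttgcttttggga
Isg15, which fell in all 4 comparisons, held 3 overlapping ISRE matches in its window, and Oas1a and Oas1g held 2 overlapping ones each, just before the start. Oas1a also held 1 GAS match. Stat2, which rose in 3 comparisons, held 1 ISRE match, on the other strand. Oasl1 and Herc6 held neither pattern, which says only that these letters are not in this window. Over windows of 250 bases before to 50 bases after the start, 26 of the 35 genes had an entry. Of those, 15 of 26 (57.7%) held an ISRE match, against 3.44% of 32851 mouse promoters, and 5 of 26 (19.2%) held a GAS match, against 8.30%. A gene with several entries was counted if any of them matched, while the background counted each entry by itself, so the units are not alike. The patterns can share letters, as they do in Bst2. ISRE matches were found in 8 of 13 genes that fell, 3 of 5 that rose and 4 of 8 called in no comparison. GAS matches were found in 2, 1 and 2 genes of the same classes. The presence of either pattern was thus spread over all classes, in counts too small to compare. Mx1, Mx2, Usp18, Oas1b, Oas2, Dhx58, Parp14, Rtp4 and Ifi27l2a had no entry.

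Many of the 35 genes lie side by side. In the GENCODE annotation of GRCm38 (mm10), Ifit2, Ifit3, Ifit3b and Ifit1 lie in that order on chromosome 19 (34550694 to 34650009), Oas2, Oas3, Oas1b, Oas1g and Oas1a on chromosome 5 (120730333 to 120907521), and Rsad2 and Cmpk2 on chromosome 12 (26442746 to 26479837). Neighbours did not always share a call: Oas1a and Oas1g fell in all 4 comparisons, while Oas1b, Oas2 and Oas3, in the same stretch of chromosome 5, passed the edgeR test in none. The differences between these neighbours were not tested, and DESeq2 called Oas1b and Oas2 lower with the unmasked control at day 4 (log2 -0.61 for both, DESeq2 adjusted p = 0.0463 and 0.0342; edgeR adjusted p = 0.0761 and 0.0668). Some members share sequence, and how reads were split between them is not known. In stretches of 50 bases, 57.6% of Oas1a was also found in Oas1g and 45.3% of Oas1g in Oas1a, and 51.2% of Ifit3 was found in Ifit3b and 44.5% of Ifit3b in Ifit3, so the separate levels of these 4 genes are uncertain. Herc6 and Rtp4 overlap a predicted gene on their own strand over 13.7% and 13.9% of their exonic length.

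Per kilobase of exon, the most abundant of the 35 in vehicle tumours of day 4 was Bst2, which codes for tetherin, a membrane protein that holds budding virus, at 694 CPM per kb, followed by Isg15 at 381, Ifit3 at 124 and Rsad2 at 123 CPM per kb. The lowest were Ddx60 and Herc6, at 9.47 and 11.9 CPM per kb. The genes that fell in all 4 comparisons stood in the middle and upper range: Oasl1, Oas1a, Usp18 and Oas1g measured at 89.6, 81.5, 59.1 and 29.9 CPM per kb, and Stat2, which rose, at 34.3 CPM per kb.

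Among the 3 transcription factor genes, Stat2 rose, Irf7 fell in 1 comparison and Irf9 passed the test in none. Stat2 (chromosome 10, 128270559 to 128292849) codes for a subunit of the complex that type I interferon activates. Stat2 at day 4 read 217, 198, 206, 264 and 133 CPM in the vehicle tumours and 313, 276, 295, 316 and 326 CPM after mXTX301. Stat2 after the unmasked control read 297, 234, 241, 242 and 261 CPM. Every mXTX301 tumour stood above every vehicle tumour, whereas the unmasked control overlapped vehicle through vehicle replicate 4. Stat2 at day 7 read 162, 135, 198, 206 and 229.6 CPM in the vehicle tumours and 309, 301, 273, 269 and 281 CPM after mXTX301. Stat2 after the unmasked control read 274, 239, 290.3, 323 and 242 CPM. Here both treated groups lay wholly above vehicle. The log2 fold changes were 0.58 ± 0.13 (SE) with mXTX301 at day 4 (edgeR adjusted p = 0.00148) and 0.62 ± 0.13 at day 7 (edgeR adjusted p = 0.000371). With the unmasked control they were 0.33 ± 0.13 at day 4 (edgeR adjusted p = 0.0729, not passed) and 0.56 ± 0.13 at day 7 (edgeR adjusted p = 0.00122). The 3 calls were kept without any 1 of the 30 libraries, and the unmasked control passed at day 4 as well without any 1 of vehicle 4 of day 4, or vehicle 2 of day 7 (0.33 to 0.43, edgeR adjusted p = 0.0166 to 0.0440); here and in what follows a number after the name of a group is that of its replicate.

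Irf7 (chromosome 7, 141262706 to 141266481) codes for the factor that amplifies interferon-alpha production and is itself induced by type I interferon. Irf7 at day 4 read 221, 167, 242, 224 and 221 CPM in the vehicle tumours and 179, 203, 208, 172 and 188 CPM after mXTX301. Irf7 after the unmasked control read 170.3, 146, 152, 141 and 192 CPM. The unmasked tumours were the lowest as a group and overlapped vehicle only through vehicle replicate 2; Irf7 fell there by 1.34-fold (log2 fold change -0.42 ± 0.11 SE, edgeR adjusted p = 0.00805). Irf7 at day 7 read 179.8, 174, 244, 184 and 198 CPM in the vehicle tumours and 198, 218, 195, 242 and 234 CPM after mXTX301. Irf7 after the unmasked control read 172, 186, 219, 264 and 193 CPM. The 3 groups of day 7 overlapped, and the differences from vehicle were 0.15 and 0.08 on the log2 scale (edgeR adjusted p = 0.29 and 0.613). Irf9, which codes for the DNA-binding part of the same complex as Stat2, varied little, from 75.0 to 108 CPM over all 30 libraries, with log2 fold changes between -0.05 and 0.15.

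The ubiquitin-like system split. Isg15 (chromosome 4, 156199424 to 156200818) codes for the ubiquitin-like protein that is attached to target proteins, Usp18 for the protease that removes it and that also dampens signalling at the type I receptor, and Herc6 for the mouse ligase that attaches it. Isg15 at day 4 read 319, 247, 319.7, 322 and 234 CPM in the vehicle tumours and 233, 229.7, 185, 213 and 177 CPM after mXTX301. Isg15 after the unmasked control read 205, 135, 192, 175 and 193 CPM. Every treated tumour stood below every vehicle tumour, although the highest mXTX301 value and the lowest vehicle value nearly met. Isg15 at day 7 read 211, 146, 295, 220.5 and 262 CPM in the vehicle tumours and 156, 213, 155, 148 and 154 CPM after mXTX301. Isg15 after the unmasked control read 169.9, 128, 205, 203 and 126 CPM. At that time the groups overlapped, since vehicle replicate 2 lay below every mXTX301 tumour and mXTX301 replicate 2 stood well above the other mXTX301 tumours. Isg15 fell by 1.39-fold and 1.37-fold with mXTX301 at days 4 and 7 (log2 fold change -0.47 ± 0.16 and -0.46 ± 0.16 SE, edgeR adjusted p = 0.028 and 0.0233) and by 1.60-fold and 1.36-fold with the unmasked control (-0.68 ± 0.16 and -0.45 ± 0.16 SE, edgeR adjusted p = 0.00395 and 0.0287). Only the call of the unmasked control at day 4 was kept without any 1 library. The mXTX301 call of day 4 was lost without any 1 of vehicle 1, 3 or 4, mXTX301 3 or 5 of day 4 (-0.43 to -0.44, edgeR adjusted p = 0.0523 to 0.0673). That of day 7 was lost without vehicle 3 of day 7 (-0.38, edgeR adjusted p = 0.0673), and that of the unmasked control at day 7 was lost without any 1 of vehicle 3 or 5, unmasked 2 or 5 of day 7 (-0.35 to -0.41, edgeR adjusted p = 0.0560 to 0.0906).

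Usp18 (chromosome 6, 121245906 to 121270917) gave the steadier fall. Usp18 at day 4 read 182, 149, 170.2, 199 and 125 CPM in the vehicle tumours and 132, 124, 103, 118 and 104 CPM after mXTX301. Usp18 after the unmasked control read 115, 65.0, 92.3, 96.3 and 110.2 CPM. Unmasked tumours all lay below vehicle, and mXTX301 overlapped vehicle only through vehicle replicate 5. Usp18 at day 7 read 123, 107, 185, 153 and 163 CPM in the vehicle tumours and 93.1, 110.3, 90.0, 81.2 and 85.3 CPM after mXTX301. Usp18 after the unmasked control read 96.0, 77.5, 116, 118 and 72.9 CPM. At day 7 vehicle replicate 2 was the only vehicle tumour within the range of either treated group. The fold changes were 1.42-fold and 1.59-fold lower with mXTX301 (log2 -0.51 ± 0.16 and -0.67 ± 0.16 SE, edgeR adjusted p = 0.0172 and 0.0013) and 1.72-fold and 1.52-fold lower with the unmasked control (log2 -0.78 ± 0.16 and -0.61 ± 0.16 SE, edgeR adjusted p = 0.000965 and 0.00329). All 4 calls were kept without any 1 of the 30 libraries.

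Herc6 (chromosome 6, 57581000 to 57664632) went the other way. Herc6 at day 4 read 123, 102, 113, 134 and 80.3 CPM in the vehicle tumours and 166, 153, 149, 168 and 161 CPM after mXTX301. Herc6 after the unmasked control read 137, 121, 129, 136 and 112 CPM. The mXTX301 tumours were all above vehicle, and the unmasked tumours overlapped vehicle replicates 1, 3 and 4. Herc6 at day 7 read 102, 73.0, 115, 126 and 109 CPM in the vehicle tumours and 179.5, 164, 149, 149 and 143 CPM after mXTX301. Herc6 after the unmasked control read 152, 136, 152, 163 and 134 CPM. Both treated groups stood wholly above vehicle at day 7. Herc6 rose with mXTX301 by 1.44-fold at day 4 and 1.50-fold at day 7 (edgeR adjusted p = 0.00107 and 0.000177) and with the unmasked control by 1.41-fold at day 7 (edgeR adjusted p = 0.00107); at day 4 the difference of 0.20 ± 0.11 (log2, SE) did not pass (edgeR adjusted p = 0.211). Its 3 calls were kept without any 1 library.

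**Figure D2:**
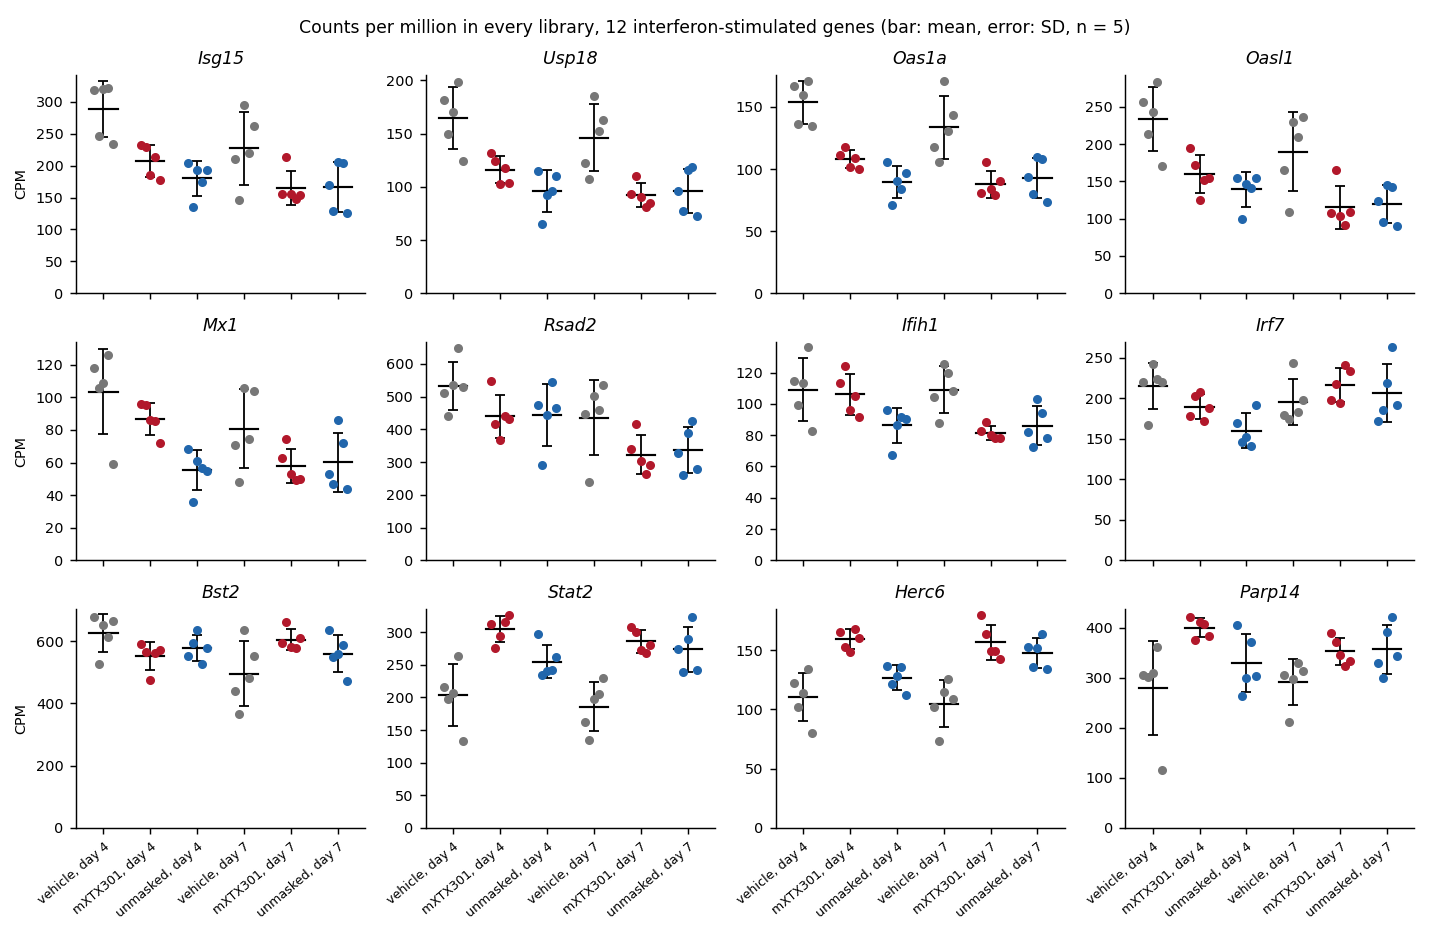
CPM of 12 of the genes in every library (points), with the group mean and SD (bars, n = 5), by treatment and day (x axis); each y axis starts at 0. Usp18, Oas1a and Oasl1 sit lower in the treated groups (red, mXTX301; blue, unmasked control) than in vehicle (grey), and Stat2 and Herc6 sit higher.

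The OAS family codes for enzymes that make the second messenger which activates RNase L, and for related proteins. Of its 7 members among the 35 genes 3 fell in every comparison (Oas1a, Oas1g and Oasl1), none rose, and Oas1b, Oas2, Oas3 and Oasl2 did not pass. Oas1a (chromosome 5, 120896256 to 120907521) fell with the smallest p of these 7 in each comparison. Oas1a at day 4 read 167, 137, 159, 171 and 134 CPM in the vehicle tumours and 111, 118, 101, 109 and 100.3 CPM after mXTX301. Oas1a after the unmasked control read 105, 71.1, 90.3, 83.6 and 96.4 CPM. Both treated groups lay below all vehicle tumours. Oas1a at day 7 read 117, 106, 171, 130.3 and 144 CPM in the vehicle tumours and 80.4, 106, 83.6, 79.3 and 90.3 CPM after mXTX301. Oas1a after the unmasked control read 93.5, 79.7, 110.1, 108 and 73.3 CPM. Again mXTX301 did not overlap vehicle, although its highest value and the lowest vehicle value nearly met, at 105.8 and 106.0 CPM. The unmasked control overlapped vehicle through vehicle replicate 2. The log2 fold changes were -0.51 ± 0.12 and -0.61 ± 0.12 (SE) with mXTX301 at days 4 and 7 (edgeR adjusted p = 0.00267 and 0.000254) and -0.78 ± 0.12 and -0.53 ± 0.12 with the unmasked control (edgeR adjusted p = 6.19e-05 and 0.00116), and all 4 calls were kept without any 1 library. Oas1g, which shares sequence with it, changed by -0.57, -0.71, -0.92 and -0.57 in the same order (edgeR adjusted p = 0.00864, 0.000764, 0.000219 and 0.00542).

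Oasl1 (chromosome 5, 114923240 to 114937915) codes for an OAS-like protein known to restrain the translation of Irf7. Oasl1 at day 4 read 257, 214, 244, 284 and 171 CPM in the vehicle tumours and 195, 173, 125, 152 and 155 CPM after mXTX301. Oasl1 after the unmasked control read 155, 99.3, 146, 142 and 155 CPM. Unmasked tumours were all below vehicle; mXTX301 overlapped it through vehicle replicate 5. Oasl1 at day 7 read 166, 108, 229, 210.0 and 237 CPM in the vehicle tumours and 108, 165, 104, 91.2 and 109 CPM after mXTX301. Oasl1 after the unmasked control read 124, 95.4, 146, 142 and 90.4 CPM. The day 7 groups overlapped, vehicle replicate 2 being the only vehicle tumour within the treated range. Oasl1 fell by 1.46-fold and 1.65-fold with mXTX301 (edgeR adjusted p = 0.0309 and 0.00342) and by 1.68-fold and 1.59-fold with the unmasked control (edgeR adjusted p = 0.00673 and 0.00639). The mXTX301 call of day 4 was lost without any 1 of vehicle 1, 3 or 4, mXTX301 3, 4 or 5 of day 4 (-0.48 to -0.54, edgeR adjusted p = 0.0544 to 0.0825); the other three were kept without any 1 library. Oasl2, its neighbour on chromosome 5, measured 439 ± 109 CPM (SD, n = 5) in vehicle at day 4, 472 ± 21.4 CPM with mXTX301 and 384 ± 52.2 CPM with the unmasked control, and its log2 differences from vehicle ran from -0.19 to 0.11 over the 4 comparisons. Oas2 and Oas3 had differences of -0.61 to 0.16 and -0.26 to 0.09, and Oas1b, which is truncated in C57BL/6 mice, of -0.61 to -0.03. For Oas2 the difference of the unmasked control at day 4 (edgeR adjusted p = 0.0668) passed without any 1 of vehicle 5, unmasked 1 of day 4, or vehicle 2 of day 7 (-0.61 to -0.79, edgeR adjusted p = 0.0100 to 0.0361).

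The IFIT proteins bind foreign RNA and block its translation. None of the 4 IFIT genes among the 35 rose. Ifit1 and Ifit3b fell, and Ifit2 and Ifit3 did not pass in any comparison. Ifit1 measured 125 ± 21.3 CPM in vehicle at day 7 (SD, n = 5), 95.1 ± 10.5 CPM with mXTX301 and 90.9 ± 21.1 CPM with the unmasked control, a fall of 1.32-fold and 1.38-fold (edgeR adjusted p = 0.0444 and 0.0217). At day 4 its differences were -0.16 and -0.31 on the log2 scale (edgeR adjusted p = 0.473 and 0.168). Ifit3b, a close copy of Ifit3, fell with mXTX301 at day 7 (-0.60 ± 0.24 SE, edgeR adjusted p = 0.0445) and with the unmasked control on both days (-0.76 ± 0.25 and -0.67 ± 0.24 SE, edgeR adjusted p = 0.0261 and 0.0271). Each of these 5 calls was lost in at least 1 of the fits that left out a library. Those of Ifit1 were lost with mXTX301 without any 1 of vehicle 3, 4 or 5, mXTX301 3, 4 or 5 of day 7 (-0.37 to -0.39, edgeR adjusted p = 0.0723 to 0.0772) and with the unmasked control without any 1 of unmasked 2 or 5 of day 7 (-0.39, edgeR adjusted p = 0.0589 to 0.0697). Those of Ifit3b were lost with mXTX301 without any 1 of vehicle 3, 4 or 5, mXTX301 1, 3, 4 or 5 of day 7 (-0.54 to -0.62, edgeR adjusted p = 0.0598 to 0.0904), and with the unmasked control without any 1 of vehicle 3 or 4, unmasked 2, 3 or 5 of day 4 (-0.62 to -0.75, edgeR adjusted p = 0.0507 to 0.0865) and without any 1 of vehicle 3 or 5, unmasked 2 or 5 of day 7 (-0.55 to -0.62, edgeR adjusted p = 0.0509 to 0.0762). Ifit2 and Ifit3 ranged from -0.12 to 0.07 and from -0.46 to -0.09 in log2 difference from vehicle, and Ifit3 passed with the unmasked control at day 4 without vehicle 5 of day 4 (-0.59, edgeR adjusted p = 0.0225).

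The Mx genes code for dynamin-like GTPases that block viral replication; in C57BL/6 mice the Mx1 allele makes no functional protein, so its RNA serves only as a readout. Both fell with the unmasked control at day 4, and Mx2 fell with mXTX301 at day 7. Mx1 at day 4 read 118, 105, 109, 126 and 59.4 CPM in the vehicle tumours and 96.0, 95.3, 86.3, 85.4 and 71.9 CPM after mXTX301. Mx1 after the unmasked control read 68.6, 36.0, 60.9, 56.7 and 55.0 CPM. The unmasked tumours were the lowest as a group, and vehicle replicate 5 was the only vehicle tumour in their range. Mx1 at day 7 read 71.0, 48.1, 106, 74.5 and 104 CPM in the vehicle tumours and 63.0, 74.2, 53.3, 49.2 and 49.9 CPM after mXTX301. Mx1 after the unmasked control read 52.7, 46.7, 86.0, 71.8 and 43.6 CPM. All 3 groups of day 7 overlapped. Mx1 fell by 1.87-fold with the unmasked control at day 4 (log2 -0.90 ± 0.22 SE, edgeR adjusted p = 0.00401), while its other differences were -0.25, -0.48 and -0.42 (mXTX301 at days 4 and 7 and unmasked control at day 7, edgeR adjusted p = 0.407, 0.0699 and 0.114). The difference of day 7 passed with mXTX301 without any 1 of vehicle 5, unmasked 2 of day 4, or vehicle 2, mXTX301 2, unmasked 3 of day 7 (-0.49 to -0.63, edgeR adjusted p = 0.0171 to 0.0489) and with the unmasked control without any 1 of vehicle 2, unmasked 3 of day 7 (-0.57 to -0.60, edgeR adjusted p = 0.0273 to 0.0302). Mx2 gave the deepest fall of the 35 genes over the 4 comparisons, 2.09-fold with the unmasked control at day 4 (log2 -1.06 ± 0.27 SE, edgeR adjusted p = 0.00567), from 48.3 ± 14.1 to 23.1 ± 4.98 CPM (SD, n = 5). Its fall with mXTX301 at day 7 (-0.72 ± 0.27 SE, edgeR adjusted p = 0.0278) was lost without any 1 of vehicle 3 or 5, mXTX301 3, 4 or 5 of day 7 (-0.60 to -0.70, edgeR adjusted p = 0.0508 to 0.0796), and its difference with the unmasked control at day 7 (-0.61, edgeR adjusted p = 0.0639) passed without any 1 of vehicle 5 of day 4, or vehicle 1 or 2, mXTX301 2, unmasked 3 of day 7 (-0.63 to -0.82, edgeR adjusted p = 0.0172 to 0.0467).

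Of the 4 genes for sensors of viral RNA or their partners, Ifih1 and Dhx58 each fell in 3 comparisons, Ddx58 fell in 2, and Ddx60 rose in 1. Ifih1 (chromosome 2, 62595798 to 62646255) codes for MDA5, which binds long double-stranded RNA. Ifih1 at day 4 read 114, 99.2, 113, 136 and 82.4 CPM in the vehicle tumours and 113, 124, 96.2, 105 and 91.5 CPM after mXTX301. Ifih1 after the unmasked control read 95.9, 67.1, 86.4, 91.9 and 90.5 CPM. Vehicle replicate 5 was the only vehicle tumour within the range of the unmasked tumours, and mXTX301 overlapped vehicle broadly. Ifih1 at day 7 read 104, 87.6, 126, 119.8 and 108 CPM in the vehicle tumours and 82.5, 88.5, 80.0, 78.2 and 78.1 CPM after mXTX301. Ifih1 after the unmasked control read 82.0, 72.6, 103, 94.4 and 78.1 CPM. The treated tumours of day 7 lay below most vehicle tumours, and vehicle replicate 2 was the one within their range. Ifih1 fell with mXTX301 at day 7 by 1.34-fold (log2 -0.42 ± 0.12 SE, edgeR adjusted p = 0.00472) and with the unmasked control by 1.26-fold at day 4 and 1.27-fold at day 7 (edgeR adjusted p = 0.0402 and 0.0199), against -0.04 with mXTX301 at day 4 (edgeR adjusted p = 0.828). The unmasked call of day 4 was lost without any 1 of vehicle 1, 3 or 4, unmasked 2 or 3 of day 4 (-0.25 to -0.34, edgeR adjusted p = 0.0676 to 0.142) and that of day 7 without unmasked 2 of day 7 (-0.29, edgeR adjusted p = 0.0663).

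Dhx58, which codes for LGP2, a regulator of the other sensors, fell with mXTX301 at day 7 (log2 -0.31 ± 0.10 SE, edgeR adjusted p = 0.0107) and with the unmasked control on both days (-0.39 ± 0.10 and -0.36 ± 0.10 SE, edgeR adjusted p = 0.00504 and 0.00458); these calls were kept without any 1 library. At day 4 its level was 81.5 to 101 CPM in vehicle and 54.9 to 78.6 CPM with the unmasked control, with no overlap. Ddx58, which codes for RIG-I, the sensor of RNA ends left by viruses, fell with mXTX301 at day 7 (-0.39 ± 0.13 SE, edgeR adjusted p = 0.0175) and with the unmasked control at day 4 (-0.46 ± 0.13 SE, edgeR adjusted p = 0.0134); the latter was lost without unmasked 2 of day 4 (-0.38, edgeR adjusted p = 0.0560). With the unmasked control at day 7 Ddx58 lay near the threshold (-0.31, edgeR adjusted p = 0.0603) and passed without any 1 of 22 libraries (edgeR adjusted p from 0.00996). Ddx60, a helicase gene related to these sensors, passed only with mXTX301 at day 4, where it rose (0.33 ± 0.12 SE, edgeR adjusted p = 0.0377), from 82.2 ± 13.0 to 104 ± 11.8 CPM (SD, n = 5). That call was lost without any 1 of vehicle 2, 3 or 5 or mXTX301 1, 2 or 4 of day 4 (0.26 to 0.32, edgeR adjusted p = 0.0611 to 0.135), without the low-count filter (edgeR adjusted p = 0.0513) and with only the compared groups fitted (edgeR adjusted p = 0.0504).

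The remaining 12 effector genes gave 4 that rose in 1 comparison each (Bst2, Parp14, Rtp4 and Xaf1), 4 that fell in 1 or more (Rsad2, Cmpk2, Samd9l and Isg20) and 4 that passed in none (Ifi44, Ifi27l2a, Trim30a and Eif2ak2). Rsad2 (chromosome 12, 26442746 to 26456452) codes for viperin, an enzyme that makes a chain-terminating nucleotide from CTP, and Cmpk2 for the nucleotide kinase encoded beside it. Rsad2 at day 4 read 512, 440.0, 535, 647 and 531 CPM in the vehicle tumours and 548, 415, 369, 441 and 431 CPM after mXTX301. Rsad2 after the unmasked control read 474, 291, 444, 545 and 466 CPM. The groups overlapped. Rsad2 at day 7 read 447, 239.9, 501, 459 and 534 CPM in the vehicle tumours and 341, 416, 304, 264 and 290.4 CPM after mXTX301. Rsad2 after the unmasked control read 329, 261, 388, 424 and 278 CPM. Here vehicle replicates 1, 3, 4 and 5 stood above every treated tumour and vehicle replicate 2 below every one. Rsad2 fell with mXTX301 at day 7 by 1.35-fold at the edge of the threshold (log2 -0.43 ± 0.18 SE, edgeR adjusted p = 0.0496). That call was lost without any 1 of vehicle 1, 3, 4 or 5, mXTX301 1, 3, 4 or 5 of day 7 (-0.37 to -0.47, edgeR adjusted p = 0.0536 to 0.110), while the unmasked control passed without any 1 of vehicle 2, unmasked 4 of day 7 (-0.49 to -0.54, edgeR adjusted p = 0.00796 to 0.0424). Cmpk2 fell more firmly, by 1.60-fold with mXTX301 and 1.46-fold with the unmasked control at day 7 (log2 -0.68 ± 0.19 and -0.55 ± 0.19 SE, edgeR adjusted p = 0.00405 and 0.0177), the latter lost without any 1 of unmasked 2 or 5 of day 7 (-0.46 to -0.47, edgeR adjusted p = 0.0513 to 0.0590).

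Isg20, an exonuclease gene, fell with mXTX301 on both days (-0.33 and -0.34, edgeR adjusted p = 0.0493 and 0.0333) and with the unmasked control at day 7 (-0.41, edgeR adjusted p = 0.0126). Only the last of these was kept without any 1 library. The call of day 4 was lost without any 1 of vehicle 1, 3, 4 or 5, mXTX301 2, 3, 4 or 5, unmasked 2 or 3 of day 4, or unmasked 2 of day 7 (-0.30 to -0.35, edgeR adjusted p = 0.0538 to 0.110) and that of mXTX301 at day 7 without any 1 of vehicle 3, 4 or 5, mXTX301 1, 3, 4 or 5 of day 7 (-0.27 to -0.34, edgeR adjusted p = 0.0501 to 0.0915). Samd9l, which codes for a restriction factor of poxviruses, fell with mXTX301 at day 7 (-0.37 ± 0.15 SE, edgeR adjusted p = 0.0484), from 162 to 201 CPM in vehicle to 132 to 154 CPM, without overlap.

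Among the genes that rose was Bst2 (chromosome 8, 71534255 to 71537456), the gene for tetherin. Bst2 at day 4 read 677, 526, 652, 612 and 665 CPM in the vehicle tumours and 590.4, 566, 476, 561 and 572 CPM after mXTX301. Bst2 after the unmasked control read 554, 594, 635, 526 and 579.9 CPM. All groups overlapped, with treated means below vehicle. Bst2 at day 7 read 439.6, 366, 638, 483 and 553 CPM in the vehicle tumours and 593, 663, 581, 579.6 and 611 CPM after mXTX301. Bst2 after the unmasked control read 635, 549.5, 558, 589 and 471 CPM. At day 7 vehicle replicate 3 was the only vehicle tumour within the mXTX301 range, and the others lay below it. Bst2 rose with mXTX301 at day 7 by 1.22-fold (log2 0.29 ± 0.10 SE, edgeR adjusted p = 0.0234), against -0.18 at day 4 (edgeR adjusted p = 0.197); the rise was lost without any 1 of vehicle 1, 2 or 4, mXTX301 2 or 5 of day 7 (0.18 to 0.27, edgeR adjusted p = 0.0519 to 0.128). Xaf1, a pro-apoptotic gene, rose with mXTX301 at day 7 (0.35 ± 0.10 SE, edgeR adjusted p = 0.00365), from 62.4 to 93.9 CPM in vehicle to 95.1 to 112 CPM without overlap, and that call was kept without any 1 library. Rtp4, a gene for a receptor chaperone, rose by 1.18-fold in the same comparison (edgeR adjusted p = 0.0322). The Rtp4 call was lost without the low-count filter (edgeR adjusted p = 0.0667) and with only the compared groups fitted (edgeR adjusted p = 0.0542).

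Parp14 (chromosome 16, 35832874 to 35871544), a mono-ADP-ribosyltransferase gene, rose with mXTX301 at day 4. Parp14 at day 4 read 305, 302, 311, 362 and 116 CPM in the vehicle tumours and 422, 376, 411, 408 and 384 CPM after mXTX301. Parp14 after the unmasked control read 406, 264, 301, 372 and 303 CPM. Vehicle replicate 5 was far below the other vehicle tumours, and every mXTX301 tumour exceeded every vehicle tumour. Parp14 at day 7 read 306, 211, 297, 329 and 314 CPM in the vehicle tumours and 389, 372, 347, 324 and 334 CPM after mXTX301. Parp14 after the unmasked control read 330.3, 299.9, 392, 421 and 343 CPM. These groups overlapped. The rise at day 4 was 1.43-fold (log2 0.52 ± 0.18 SE, edgeR adjusted p = 0.0286). Over the fits that left out 1 library its log2 value ran from 0.32 to 0.62. The call was lost without mXTX301 3 of day 4 (0.50, edgeR adjusted p = 0.0511). It was also lost with only the compared groups fitted (0.52, edgeR adjusted p = 0.115) and without the 12 libraries rich in skin RNA (0.62, edgeR adjusted p = 0.0659). The other differences were 0.28, 0.24 and 0.29 (mXTX301 day 7, unmasked control days 4 and 7) and did not pass. These differences of day 7 passed without vehicle replicate 5 of day 4, which enters the shared estimate of the spread (0.26 and 0.27, edgeR adjusted p = 0.0479 and 0.0408).

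Ifi44, Ifi27l2a, Trim30a and Eif2ak2, the last of which codes for the kinase PKR that halts translation on double-stranded RNA, passed in no comparison, with log2 differences from vehicle between -0.52 (Ifi27l2a, unmasked control, day 4) and 0.29 (Trim30a, mXTX301, day 4). For Eif2ak2 the SD of log2 CPM was 0.60 in vehicle at day 4 against 0.11 with mXTX301. It passed as lower with the unmasked control at day 4 without vehicle 5 of day 4 (-0.47, edgeR adjusted p = 0.00412) and with mXTX301 at day 7 without vehicle 5 of day 4 (-0.30, edgeR adjusted p = 0.0235).

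The ligands of the pathway were near the limit of detection. Ifnb1, the gene for interferon-beta, had 38, 22, 25, 51 and 46 counts in the vehicle tumours of day 4, 26, 16, 14, 28 and 11 with mXTX301 and 9, 9, 14, 11 and 14 with the unmasked control. Every unmasked tumour was below every vehicle tumour in CPM, and mXTX301 overlapped vehicle. At day 7 Ifnb1 had 18, 27, 65, 24 and 36 counts in vehicle, 11, 20, 12, 10 and 4 with mXTX301 and 8, 12, 18, 12 and 17 with the unmasked control, with overlap. Ifnb1 fell with the unmasked control on both days (log2 -1.73 ± 0.41 and -1.26 ± 0.40 SE, edgeR adjusted p = 0.00332 and 0.0128) and with mXTX301 at day 7 (-1.37 ± 0.41 SE, edgeR adjusted p = 0.00725), but not at day 4 (-0.89 ± 0.40 SE, edgeR adjusted p = 0.0882). Without vehicle replicate 3 of day 7, the tumour with the most Ifnb1, the unmasked call of day 7 was lost (-0.87, edgeR adjusted p = 0.0737), and without mXTX301 replicate 1 of day 4 the mXTX301 difference of that day passed (-1.13, edgeR adjusted p = 0.0440). Without the 8 libraries richest in skin RNA the mXTX301 call of day 7 was lost (-1.31, edgeR adjusted p = 0.0613). Without the 12 richest, both calls of day 7 were lost, at -0.58 with mXTX301 and -0.84 with the unmasked control (edgeR adjusted p = 0.485 and 0.413), while that of day 4 passed (-1.74, edgeR adjusted p = 0.0489). Ifnz, a minor type I gene with 0.195 CPM in vehicle at day 4, fell in all 4 comparisons (log2 -1.82 to -1.51). Ifne, another interferon ligand gene, did not pass the filter and was not tested, but its few counts leaned upward. Summed over each group they were 11 in vehicle, 21 with mXTX301 and 20 with the unmasked control at day 4. At day 7 they were 7, 64 and 47 in the same order. The 14 listed interferon-alpha genes had 76 counts over all 30 libraries and none passed the filter; 24 and 23 of those counts lay in the vehicle tumours of days 4 and 7, 10 and 5 in mXTX301 tumours and 6 and 8 in tumours given the unmasked control, too few to compare gene by gene.

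Ifng, the gene for interferon-gamma, moved the other way from Ifnb1. Ifng at day 4 read 0.237, 0.335, 0.569, 0.0790 and 0.0348 CPM in the vehicle tumours and 2.47, 3.44, 10.9, 3.46 and 5.59 CPM after mXTX301. Ifng after the unmasked control read 3.92, 8.78, 4.54, 3.68 and 6.50 CPM. Every treated tumour was above every vehicle tumour. Ifng at day 7 read 0.369, 0.397, 0.0778, 0.308 and 0.120 CPM in the vehicle tumours and 7.26, 4.66, 8.79, 12.9 and 8.83 CPM after mXTX301. Ifng after the unmasked control read 3.09, 5.87, 4.71, 9.07 and 7.58 CPM. Again no treated tumour overlapped vehicle. Ifng rose by 20.6-fold and 32.8-fold with mXTX301 and by 21.8-fold and 23.4-fold with the unmasked control at days 4 and 7 (edgeR adjusted p = 3.78e-06, 1.36e-07, 3.05e-06 and 5.54e-07). A predicted gene overlaps 25.95% of its exonic length on the same strand. Among the type I receptor genes Ifnar2 rose in all 4 comparisons, by 1.63-fold and 1.52-fold at day 7 (edgeR adjusted p = 6.69e-06 and 5.23e-05) and by 1.23-fold and 1.23-fold at day 4 (edgeR adjusted p = 0.0313 and 0.042), and Ifnar1 rose in 3, by 1.19-fold to 1.23-fold. Both Ifnar2 calls of day 4 and all 3 Ifnar1 calls were lost without the libraries rich in skin RNA, those with over 100 CPM of keratin genes (edgeR adjusted p = 0.253 and 0.166 for Ifnar2 and 0.129, 0.147 and 0.151 for Ifnar1). Of the other receptor genes Il10rb rose at day 7 with both molecules (0.37 and 0.41, edgeR adjusted p = 0.0164 and 0.00915) and Ifngr1 with the unmasked control at day 7 (0.43, edgeR adjusted p = 0.0346); Ifngr2 and Ifnlr1 passed in no comparison.

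**Figure D3:**
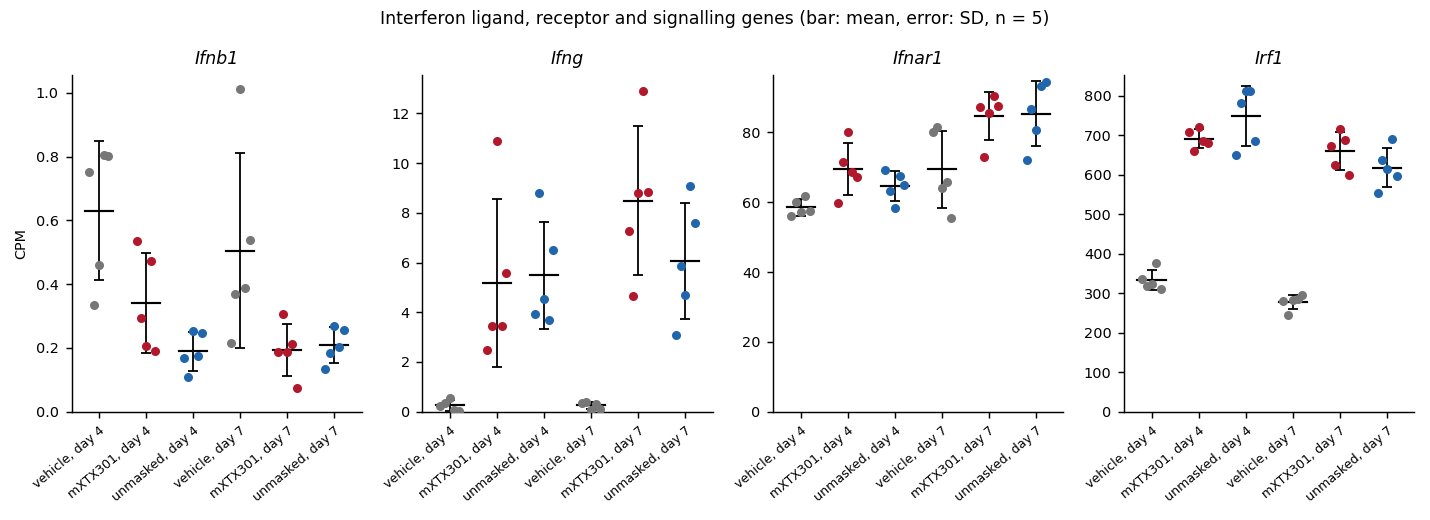
CPM of Ifnb1, Ifng, Ifnar1 and Irf1 in every library (points), with the group mean and SD (bars, n = 5), by treatment and day (x axis); each y axis starts at 0. Ifng and Irf1 are higher in every treated tumour than in every vehicle tumour of the same day, and Ifnb1 reaches at most 1.01 CPM, in a vehicle tumour of day 7.

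Set beside the 35 genes, the 30 interferon-gamma-responsive genes of a separate list rose without exception, 30 of 30 in each of the 4 comparisons. Their median log2 fold changes were 1.92 and 2.25 with mXTX301 at days 4 and 7 and 2.00 and 2.05 with the unmasked control. Over all genes tested 16.2%, 25.7%, 11.6% and 23.2% rose in that order. Gbp2, a guanylate-binding GTPase gene, rose by 3.99-fold, 5.11-fold, 4.48-fold and 4.03-fold in that order, and Irf1, a transcription factor induced by interferon-gamma, by 2.07-fold, 2.38-fold, 2.25-fold and 2.23-fold (edgeR adjusted p at most 6.65e-11 for both). Irf1 and Socs1 are in this list and in that of signalling genes. The list was chosen with earlier results of these tumours known, so its counts and medians are a description.

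Of the 28 genes for sensing and signalling, 18, 17, 16 and 18 rose and 1, 3, 3 and 2 fell. The order is mXTX301 at days 4 and 7, then the unmasked control at days 4 and 7. Medians were 0.43, 0.43, 0.33 and 0.36 on the log2 scale. The shares that rose were 64.3%, 60.7%, 57.1% and 64.3%, against 16.2%, 25.7%, 11.6% and 23.2% of all genes. Those that fell were 3.57%, 10.7%, 10.7% and 7.14%, against 16%, 22.7%, 10.8% and 21.8%. Besides Irf1, Socs1, a feedback inhibitor of the receptor kinases, rose by 1.68-fold to 1.99-fold, and Jak2, a kinase of the gamma receptor, by 1.67-fold with mXTX301 at day 7 (edgeR adjusted p = 2.52e-07). Myd88, an adaptor of Toll-like receptors, fell in all 4 (-0.28, -0.37, -0.29 and -0.32), and Mb21d1, which codes for the DNA sensor cGAS, fell in 3, most with mXTX301 at day 7 (-0.74 ± 0.09 SE, edgeR adjusted p = 5.07e-07). Of 57 tested genes in a list of 59 other interferon-stimulated genes, 21, 24, 11 and 19 rose and 8, 9, 9 and 7 fell in the same order. Medians were 0.12, 0.24, 0.04 and 0.11. The shares were 36.8%, 42.1%, 19.3% and 33.3% for rises and 14%, 15.8%, 15.8% and 12.3% for falls. Genes of this list fell more often than all genes only with the unmasked control at day 4. Those that fell included Oas1c, a relative of Oas1a, in all 4 (-0.64, -0.61, -0.74 and -0.64), and Trex1, a DNA exonuclease gene, in all 4 (-0.31, -0.31, -0.40 and -0.28); those that rose with small p included Ifi47, a GTPase gene (1.78-fold, 2.09-fold, 1.87-fold and 1.76-fold). The medians of the 35 genes were below those of all 3 lists in every comparison, as a description, since the lists were chosen with results of these tumours known.

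**Figure D4:**
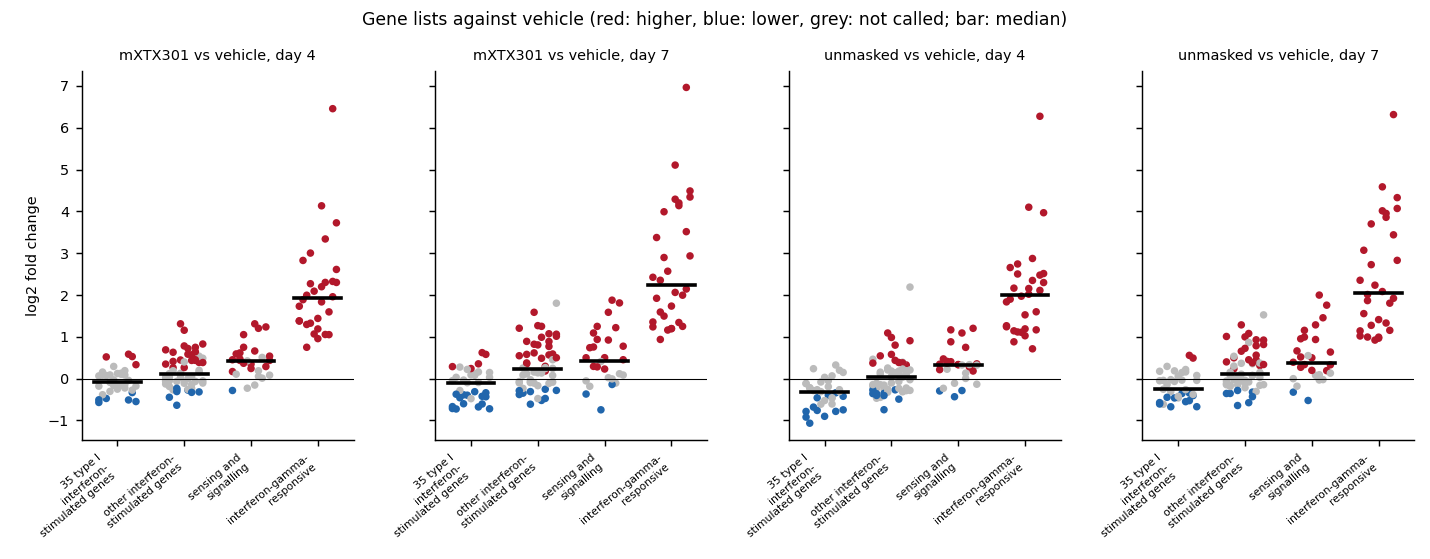
Log2 fold change against vehicle (y axis) of each gene (points) in 4 lists (x axis) in the 4 comparisons; bars are list medians, and red and blue points passed as higher and lower. All 30 interferon-gamma-responsive genes are red in every panel, with medians of 1.92 to 2.25, while the 35 type I genes lie around and below 0, with medians of -0.09 to -0.31. The lists were chosen with results of these tumours known.

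The direct contrast of mXTX301 with the unmasked control, given at different doses, called none of the 35 genes on either day, and 0% of the 15482 genes passed in either direction. By edgeR with an unadjusted p under 0.05 there were 15 of the 35 at day 4 and 1 at day 7, against 2092 and 898 of all genes. DESeq2 called none of the 35 and, over all genes, 13 as higher and 12 as lower at day 4 and 7 each way at day 7. At day 4 the 35 genes leaned to mXTX301: 32 of 35 differences were above 0, against 8129 of 15482 over all genes, the median was 0.28, and 8 genes (2.4% of all genes) had all mXTX301 tumours above all unmasked tumours. The 35 genes varied together between tumours. Unmasked replicate 2 of day 4 was the lowest of its group for 30 of them, so these differences are not independent of each other. The largest were Oas2 (0.69, 95% interval 0.20 to 1.18, edgeR adjusted p = 0.269) and Mx2 (0.68, 0.13 to 1.23, edgeR adjusted p = 0.302). Herc6 differed by 0.33 (0.09 to 0.56, edgeR adjusted p = 0.272). For 31 of the 35 the 95% interval stayed within 1 log2 unit either way, and over all 35 it ran from -0.38 to 1.23. At day 7 the median was -0.00 and 34 of 35 intervals held 0, with bounds of -0.66 and 1.06 over all 35. Fitted on the 10 mXTX301 and unmasked libraries of day 4 alone, 2 of the 35 passed as higher with mXTX301. Over all 14328 genes of that fit 89 passed as higher and 105 as lower.

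How many genes differed with time alone depended on the fit. The main edgeR fit called 3 of 15482 genes higher and 3 lower at day 7 than at day 4 in vehicle tumours. In that fit 2932 had an unadjusted p under 0.05. DESeq2 called 308 higher and 296 lower of 13675 genes. Without the 8 libraries rich in skin RNA, edgeR called 213 higher and 248 lower. In vehicle tumours none of the 35 differed between day 7 and day 4 (background 0.0194% in each direction) by edgeR, and 5 had an unadjusted p under 0.05, led by Bst2 (-0.34, 95% interval -0.55 to -0.12, edgeR adjusted p = 0.0971). The change of the treatment difference between the days also called none of the 35, for mXTX301 (background 1.95% higher and 3.04% lower) or for the unmasked control (2.95% and 2.2%), with 3 genes at an unadjusted p under 0.05 in each. The nearest were Bst2 for mXTX301 (0.47, 0.17 to 0.77, edgeR adjusted p = 0.059) and Irf7 for the unmasked control (0.50, 0.17 to 0.83, edgeR adjusted p = 0.0581). The larger number of falls at day 7 than at day 4 with mXTX301 is not shown to be a change with time. DESeq2 called 1 of the 35 in the vehicle contrast and 1 in each of the others. Over all genes it called 600 higher and 874 lower of 13376 in the change of the mXTX301 effect. In that of the unmasked control it called 985 and 737 of 14574. Without vehicle replicate 5 of day 4, 3 of the 35 passed as higher in the change of the unmasked control's effect. The count over all genes in that fit is not reported here.

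Much of the spread lay between tumours of 1 group, and it ran through most of the 35 genes at once. In vehicle at day 4, replicate 5 was the lowest for 30 of the 35 and replicate 4 the highest for 30; at day 7 replicate 2 was the lowest for 32 and replicate 3 the highest for 22. Replicate 2 of the unmasked control at day 4 was the lowest for 30, and replicate 5 at day 7 for 23. Vehicle replicate 5 of day 4 stood apart over all genes tested, and not only over the 35. Its median chi-square per gene against replicates 1, 2, 3 and 4 was 21.7 to 27.5. Among those replicates it was 2.41 to 7.75, where sampling noise alone gives 0.455. Between vehicle tumours of day 7 it was 6.10 to 26.3. The mean log2 CPM of the 35 genes was 7.00 ± 0.287 (SD, n = 5) in vehicle at day 4, 6.97 ± 0.0889 with mXTX301 and 6.67 ± 0.207 with the unmasked control, and at day 7 it was 6.85 ± 0.298, 6.71 ± 0.132 and 6.68 ± 0.260. The mXTX301 tumours of day 4 had the smallest SD of the 6 groups.

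**Figure D5:**
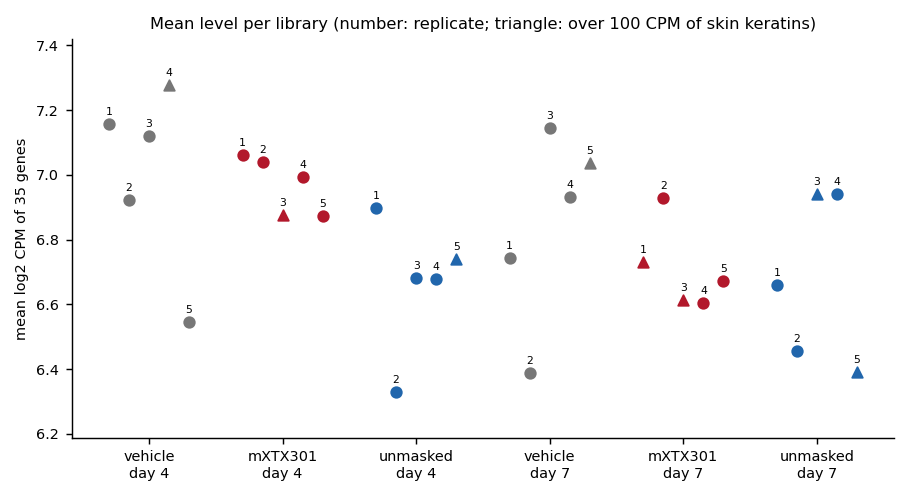
Mean log2 CPM of the 35 genes in each library (points, numbered by replicate) by treatment and day (x axis); triangles are the 8 libraries with over 100 CPM of skin keratin genes. Vehicle values run from 6.39 to 7.28 over both days, with replicate 5 lowest at day 4 and replicate 2 lowest at day 7.

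Markers of other cells moved with the treatments, and their part in the results was not tested. Tumours are mixtures, so fewer cells of a type and less RNA per cell cannot be told apart. Marker counts are in the order mXTX301 at days 4 and 7, then the unmasked control at days 4 and 7. Over all genes 16.2%, 25.7%, 11.6% and 23.2% rose and 16%, 22.7%, 10.8% and 21.8% fell in that order. The 6 macrophage markers summed to 334 to 535 CPM in vehicle at day 4, 453 to 1285 with mXTX301 and 576 to 960.0 with the unmasked control, and at day 7 to 247 to 676, 1245 to 3269 and 842 to 2675 CPM; 4, 6, 1 and 5 of the 6 rose in the 4 comparisons. The 6 T cell markers summed to 3.31 to 8.83 CPM in vehicle tumours of both days and to 14.4 to 126 CPM in treated ones, and 5, 6, 5 and 6 rose. Of 7 tested markers of plasmacytoid dendritic cells, a main source of interferon-alpha, 3, 4, 3 and 3 rose and 1 fell in each comparison (Klk1 was not tested). The 4 endothelial markers summed to 105 to 145 CPM in vehicle at day 4 and 61.2 to 84.1 CPM with the unmasked control, and 2, 0, 3 and 0 of them fell. Epithelial markers of colon were low throughout, at 1.93 to 17.1 CPM over 5 tested genes, with Cdx2 not tested, so the labelled carcinoma was not identified by them.

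Skin RNA differed between libraries of the same group. The summed CPM of Krt5, Krt14, Krt1 and Krt10 had a median of 1.39 over the 30 libraries, but exceeded 100 CPM in 8 (vehicle 4, mXTX301 3 and unmasked 5 at day 4, and vehicle 5, mXTX301 1 and 3 and unmasked 3 and 5 at day 7) and 10 times the median in 12. None of the 7 tested skin markers passed in any comparison. Without the 8 libraries, 2, 5, 9 and 6 of the 35 genes fell in the 4 comparisons, in place of 6, 15, 12 and 11, and without the 12, which left as few as 2 libraries in a group, 2, 4, 7 and 0 fell. The falls of day 7 and those with mXTX301 at day 4 were then no more frequent than over all genes, where 13.8%, 20.5%, 8.64% and 18.3% fell without the 8 and 11.3%, 15.4%, 4.01% and 5.82% without the 12. Over the genes first called lower, the median log2 fold change went from -0.51, -0.46, -0.75 and -0.53 to -0.41, -0.44, -0.69 and -0.51 without the 8 and to -0.39, -0.47, -0.71 and -0.35 without the 12, and all of these genes stayed below 0. With the unmasked control at day 7, Isg15 went from -0.45 to -0.22 and Usp18 from -0.61 to -0.37 without the 12. Oas1a and Oas1g fell in all 4 comparisons without the 8 libraries (log2 -0.46, -0.53, -0.78 and -0.51 for Oas1a, edgeR adjusted p = 0.0205, 0.00871, 0.00103 and 0.0136), and without the 12 Oas1a fell in 3 and Oas1g in 2. Without the 8, Usp18 fell in 3, Isg15 and Oasl1 in 1 each, with the unmasked control at day 4. Stat2 rose in all 4 (0.70, 0.68, 0.42 and 0.65, edgeR adjusted p = 0.00170, 0.00144, 0.0417 and 0.00255), and Herc6 rose in the same 3 as before.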

How the data were processed

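RNA of 30 mouse tumours in 6 groups of 5 was sequenced after selection of polyadenylated RNA. STAR 2.7.10a on the mm10 build, FastQC 0.11.9 and cutadapt for the reads, edgeR 3.34.0 in R 4.1.0, and HTSeq 0.11.1 are named per the submitters' processing notes; the annotation and the strand setting are not given in the sources used here. The deposited values used were raw counts per gene. The authors' deposited log2 table was used only as a check, and the log2 values of 14877 genes computed from the counts differed from it by at most 5e-05. The members and gene lists were chosen with earlier results of these data known.

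Of 24557 gene entries, 5 with a repeated symbol were left out, and 15482 of the remaining 24552 passed edgeR's expression filter. Counts were scaled by TMM and fitted with edgeR 4.0.16 in R 4.3.3 (limma 3.58.1), using the robust quasi-likelihood test, 1 mean per group over all 30 libraries and 24 residual degrees of freedom. The common biological coefficient of variation was 27.3%. P-values were adjusted by Benjamini-Hochberg over all 15482 genes in each of 9 comparisons. Log2 CPM used a prior count of 2. The fit was tested on simulated data. Replicates are separate mice. Libraries were checked for duplicates, and none were found. Alternatives were RLE factors, no filter, DESeq2 1.42.0, fits on the compared groups alone, a replicate block, each library left out, and libraries rich in skin keratin RNA left out; the 100 CPM limit for these was chosen after seeing the data.

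The rule for named genes asked for values in every library for a panel of 28 members; these are printed for 12 of them, chosen after their values were seen, and the others are given by group means, ranges and fitted changes. Promoters are RefSeq entries on GRCm38.p6, matched by symbol for 26 of 35 genes, and gene positions are from GENCODE on GRCm38. A gene that the lists count is not reported here by itself.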

Additional observations from a re-analysis of the deposited data

Results flagged for a closer look

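Values that stood apart within a group of 5 libraries were sought by Dixon's criterion (a gap over the group's range above 0.71) in 84 groups of values from 14 genes, and 7 were found; chance gives about 1 in 20. Isg15 at day 7 with mXTX301 was 213 CPM in replicate 2, against 156 CPM in the next library. Oasl1 in the same library was 165 CPM, against 109 CPM in the next. Oasl1 at day 4 with the unmasked control was 99.3 CPM in replicate 2, against 142 CPM in the next. Irf7 in vehicle replicate 2 of day 4 was 167 CPM, against 221 CPM in the next. Parp14 was 116 CPM in vehicle replicate 5 of day 4, against 302 CPM in the next, and 211 CPM in vehicle replicate 2 of day 7, against 297 CPM. Bst2 in mXTX301 replicate 3 of day 4 was 476 CPM, against 561 CPM in the next.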

How the results depend on the processing

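All counts here are of the 35 genes. Scaling by RLE factors kept every call against vehicle (10, 20, 12 and 13). The same replicate numbers did not deviate together (mean correlation 0.0465 over 75 pairs, and 9 of 30 libraries correlated best with their own number, over 2000 genes), so the groups were not treated as paired; with the replicate block, higher and lower counts were 4 and 5 with mXTX301 at day 4, 5 and 14 at day 7, 0 and 12 with the unmasked control at day 4, and 2 and 12 at day 7. Fitting only the compared groups left 2 higher with mXTX301 at day 4 and 3 at day 7. Of the 10, 20, 12 and 13 calls against vehicle it kept 8, 15, 9 and 10. The falls it lost were Mx2, Rsad2 and Isg20 with mXTX301 at day 7 and Ifit3b, Ddx58 and Ifih1 with the unmasked control at day 4. With that control at day 7 they were Isg15 (edgeR adjusted p = 0.0988), Ifit3b and Isg20. A fall of Eif2ak2 was added with mXTX301 at day 7 (edgeR adjusted p = 0.0165). Such fits also gave 2 higher in mXTX301 against the unmasked control at day 4, where 89 of all 14328 genes were higher. Without the low-count filter 3 were higher with mXTX301 at day 7. DESeq2 gave 1 lower in vehicle over time and 1 higher in each change of effect; against vehicle it kept all calls and added falls of Mx1 with mXTX301 at day 7 (DESeq2 adjusted p = 0.0402), of Oas1b, Oas2 and Cmpk2 with the unmasked control at day 4 (0.0463, 0.0342 and 0.0458) and of Mx2 and Ddx58 at day 7 (0.0362 and 0.0422). Without libraries above 10 times the median skin keratin level, 2, 4, 7 and 0 were lower in the 4 comparisons with vehicle, 4 were higher with the unmasked control at day 7, 1 was lower in vehicle over time and 1 higher in the change of the mXTX301 effect. Without those above 100 CPM, 2, 5, 9 and 6 were lower and 1 was higher with the unmasked control at day 4. Leaving out each library gave 3 to 5 higher and 3 to 6 lower with mXTX301 at day 4, 3 to 6 and 8 to 17 at day 7, 0 to 1 and 9 to 17 with the unmasked control at day 4, and 2 to 4 and 6 to 15 at day 7. It gave 0 to 2 lower in vehicle over time, 0 to 1 higher in the change of the mXTX301 effect and 0 to 3 in that of the unmasked control. The fewest falls at day 7 came without vehicle replicate 3 (8, mXTX301) and unmasked replicate 2 (6, unmasked control). Of 48 calls against vehicle among the 28 panel genes, 29 were kept in every such fit. No value called in either fit reversed its direction; among the 28 panel genes, 34 of 4144 values, called in neither fit, changed sign. The cause of these changes was not tested, except that fits with libraries left out have fewer samples.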
